A study of Mus musculus with 24 samples.

Results

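The comparison described here asks what floxed Egr1 adds to the response of the mouse pituitary to Cre recombinase. It is a difference of differences over all genes. The Egr1cKO effect compares Egr1cKO with Egr1cKO control and is the change seen with Cre when Egr1 is floxed. The Cre effect compares Cre control with wild type and is the change seen with Cre when Egr1 is not floxed. The second was subtracted from the first on the log2 scale in each sex, and males and females were averaged with equal weight. A Cre response of the same fold in both backgrounds therefore cancels to 0. All 24 of 24 libraries of the series enter, 3 in each of 8 groups, and 21927 of the 35191 genes in the table had enough counts to be tested.

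The 4 genotypes, each with males and females, were wild type (no Cre, no floxed allele), Cre control (Cre, no floxed allele), Egr1cKO control (floxed Egr1, no Cre) and Egr1cKO (floxed Egr1 with Cre). The tissue is labelled pituitary and endocrine. The promoter that drives Cre, the exons flanked by loxP sites, and the age and strain of the mice were not given in the sources used here. Titles carry 1 number series for wild type and Cre control and another for the 2 floxed genotypes, so floxing cannot be told apart from the series. Each subtraction stays within 1 series, and a shift common to a whole series on the log scale cancels. The labels do not say whether the libraries are separate animals, so the p-values measure the spread between these libraries only, which may in part be technical.

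Egr1 is a zinc-finger transcription factor of the immediate early class: its mRNA is induced within minutes by many stimuli, and the protein binds GC-rich sites near the start of its target genes. In the pituitary it is best known as a mediator of the response of gonadotropes to gonadotropin-releasing hormone, where it acts with Nr5a1 and Pitx1 on the gene for the luteinizing hormone beta subunit. The anterior lobe also holds somatotropes (growth hormone, Gh), lactotropes (prolactin, Prl), thyrotropes (Tshb) and corticotropes, which like the melanotropes of the intermediate lobe make Pomc. Because Cre recombinase can itself change a cell, a Cre control without a floxed allele is the reference that separates the 2.

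Total counts ran from 15486069 to 26255343 per library. Female wild type replicate 1 stood apart from the rest. Its mean Spearman correlation with the other 2 libraries of its group was 0.881, against 0.932 and 0.934 for those 2 and 0.960 to 0.982 for every library of the other 7 groups. In the same library 10.06% of counts fell on mitochondrially encoded genes. That share was 9.43% ± 0.884 (SD, n = 3) in female Egr1cKO, 6.08% ± 0.586 in female Cre control and 4.90% ± 1.76 in female Egr1cKO control, and group means in males lay between 2.51% and 3.45%. Fewer genes were detected at equal depth in groups with a high share, with 19299 ± 1033 in female Egr1cKO and 25171 ± 433 in male Egr1cKO. The mitochondrial share thus moved with genotype in the females, and counts of calls are given below with and without an adjustment for it.

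**Figure D1:**
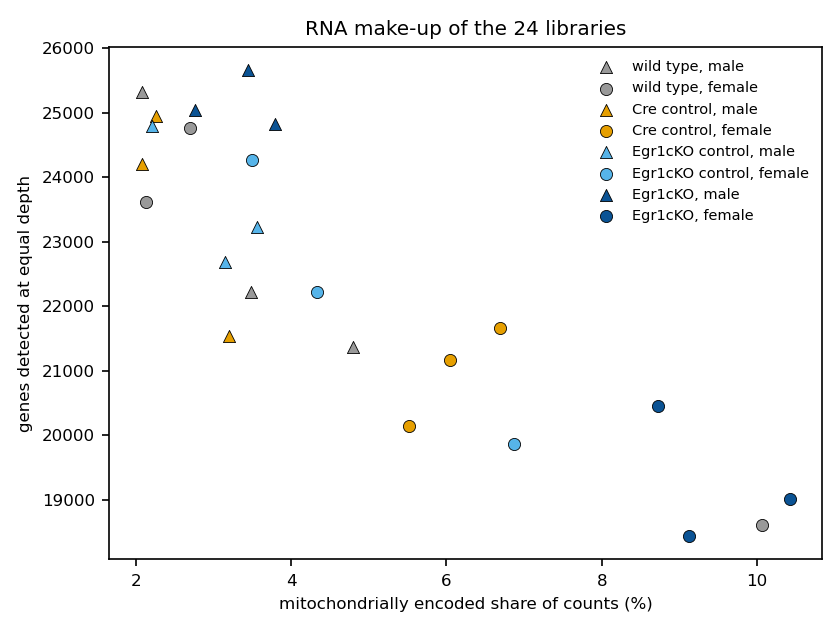
Each point is 1 of the 24 libraries, with the share of counts on mitochondrially encoded genes (percent) on the horizontal axis and the number of genes detected at equal depth on the vertical axis; colour marks genotype, triangles are males and circles females. The 3 female Egr1cKO libraries and 1 female wild type library (10.06%) lie at the lower right.

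Egr1 itself (ENSMUSG00000038418, GRCm38 chromosome 18, 34859823 to 34864984) varied so much between libraries of 1 group that its difference could not be resolved. Male levels in CPM (counts scaled to a common library size) were 19.1, 43.8 and 51.5 in wild type, 486, 74.3 and 25.3 in Cre control, 51.1, 22.7 and 42.7 in Egr1cKO control and 58.3, 238 and 105 in Egr1cKO. Female levels were 10.9, 167 and 31.8 in wild type, 61.7, 486 and 94.8 in Cre control, 34.2, 11 and 9.79 in Egr1cKO control and 162, 7.55 and 26.6 in Egr1cKO. Libraries with and without Cre overlapped in 3 of the 4 pairs, and male Egr1cKO lay above its control. The pooled Egr1cKO effect was 1.81 (log2, SE 0.887) and the Cre effect 1.98 (SE 0.887), and their difference was -0.17 (SE 1.22, 95% interval -2.75 to 2.40, edgeR adjusted p = 1). Counts per gene do not show whether a floxed exon was lost, so they are no check of the knockout.

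No gene was called for the effect of floxed Egr1 beyond Cre. With edgeR's quasi-likelihood test and Benjamini-Hochberg adjustment over all 21927 genes at 0.05, 0 genes passed (0%), and the smallest adjusted p was 0.447, for Platr9. At an unadjusted p under 0.05 there were 1125 genes (5.13%). DESeq2 called 3 genes, all lower: Platr9 and the predicted genes Gm45828 and Gm44675. The effects were centred on 0: the median over all genes was 0.01 on the log2 scale, the middle 50% of genes lay between -0.30 and 0.27, and 50.7% were positive. The median 95% interval reached 0.81 to either side of its estimate, or 0.49 for genes with a mean of at least 8 CPM. For 10049 genes (45.8%) the whole interval lay within a 2-fold difference in either direction, and for the rest a 2-fold difference was not bounded at this depth and number of libraries.

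The 2 effects that enter the subtraction compare different libraries, and each was called for many genes. Their tests share the spread estimated for each gene over all 24 libraries, so the calls are not independent. The Egr1cKO effect, averaged over the sexes, was called for 691 genes (3.15%), of which 261 rose (1.19%) and 430 fell (1.96%). The Cre effect was called for 229 genes (1.04%), of which 50 rose (0.228%) and 179 fell (0.816%). Both counts moved by over 1.5 times with single libraries left out. The Egr1cKO count was 1639 without female wild type replicate 1, which is outside that comparison but enters the spread estimate. Leaving out male Egr1cKO control replicate 1 gave 294 and replicate 3 gave 364, and the count was 408, 361 and 392 without male Egr1cKO replicates 1, 2 and 3, 384 without female Egr1cKO control replicate 2 and 423 without female Egr1cKO replicate 3. The Cre count was 411 without female wild type replicate 1. It was 139 without male wild type replicate 1, 151 and 137 without male Cre control replicates 1 and 3, and 145 and 132 without female Cre control replicates 2 and 3. With all 24 libraries, 133 genes were called in both, 19.2% of the Egr1cKO genes and 58.1% of the Cre genes, and 89 to 180 were called in both with 1 library left out. All 133 changed in the same direction, 114 lower and 19 higher, with 0 opposite. In the 179 genes that fell with Cre alone (median -1.11), the median Egr1cKO effect was -0.94 and 178 had the same sign. In the 50 that rose with Cre alone (median 0.96), the median Egr1cKO effect was 0.49 and 48 had the same sign. Seen from the other side, the 430 genes that fell in Egr1cKO (median -1.02) had a median Cre effect of -0.66, and 409 were negative there. The 261 that rose in Egr1cKO (median 0.82) had a median Cre effect of 0.46, and 252 were positive there. Over all genes the medians were -0.03 for both effects and 64.5% of genes had the same sign. Across 11226 genes with a mean of at least 8 CPM, Pearson's r between the effects was 0.676 and Spearman's rho 0.555. Genes are not independent replicates, and this is a description only.

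A call in 1 effect and not in the other is no difference between them. Of the 691 Egr1cKO genes, 356 had an interval for the effect beyond Cre that lay within 2-fold, as did 124 of the 229 Cre genes and 86 of the 133 called in both. The interval excluded 0 for 6 of those 133, for 64 of the 261 genes that rose and 110 of the 430 that fell in Egr1cKO, and for 15 of the 50 that rose and 28 of the 179 that fell with Cre. Those genes were chosen by 1 of the 2 effects that form the difference, so these counts are given as a description. Over all genes the interval lay within 2-fold for 45.8% and excluded 0 for 5.13%.

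**Figure D2:**
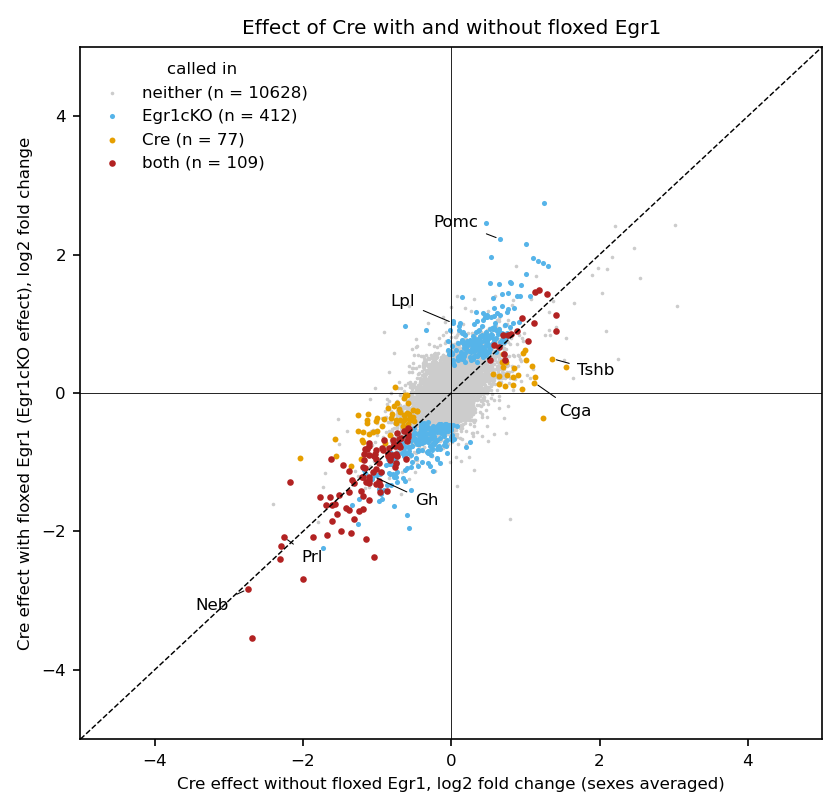
Each point is a gene with a mean of at least 8 CPM (11226 genes, 1 of them outside the axes): horizontal axis, Cre effect without floxed Egr1; vertical axis, Cre effect with floxed Egr1, both as log2 fold change averaged over the sexes. Distance from the dashed diagonal is the effect beyond Cre, and genes called in both effects (red) lie in the lower left and upper right.

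Prl, the hormone gene of lactotropes, fell with Cre in both backgrounds. In male wild type Prl stood at 36701, 39891 and 43579 CPM, and male Cre control had 4253, 3046 and 3591 CPM, beside 39167, 15179 and 46750 CPM in Egr1cKO control and 5861, 3800 and 7057 CPM in Egr1cKO. In female wild type it stood at 113210, 151150 and 140050 CPM, and female Cre control had 63165, 57812 and 75588 CPM, beside 81226, 140030 and 122890 CPM in Egr1cKO control and 20819, 48958 and 45977 CPM in Egr1cKO. Libraries with and without Cre did not overlap in any of the 4 pairs. Prl fell by 2.25 with Cre alone (log2, edgeR adjusted p = 3.97e-05) and by 2.08 in Egr1cKO (adjusted p = 6.68e-05). The effect of floxed Egr1 beyond Cre was 0.17 (SE 0.359, 95% interval -0.57 to 0.91), so the whole interval lay within 2-fold. The male value was 0.87 (SE 0.509) and the female value -0.53 (SE 0.508), and neither was called.

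Neb, which encodes the giant thin-filament protein nebulin, behaved in the same way at a much lower level. Male Neb levels were 20.4, 19.7 and 23.0 CPM in wild type against 2.7, 1.88 and 1.5 CPM in Cre control, and 20.9, 12.5 and 20.6 CPM in Egr1cKO control against 1.56, 2.29 and 3.51 CPM in Egr1cKO. Female levels were 21.5, 23.0 and 15.1 CPM in wild type against 3.93, 5.39 and 4.39 CPM in Cre control, and 35.8, 57.6 and 36.6 CPM in Egr1cKO control against 5.52, 8 and 5.14 CPM in Egr1cKO. No library with Cre reached a library without it. Neb fell by 2.75 with Cre (adjusted p = 5.1e-08) and by 2.83 in Egr1cKO (adjusted p = 2.24e-08), a difference of -0.09 (95% interval -0.71 to 0.53). As for Prl the male value was positive (0.51) and the female value negative (-0.69), with neither called.

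Of 11 skeletal muscle markers tested, Neb and Ryr1, the calcium release channel, fell in both effects, and Jph2, a junctional membrane protein, fell in Egr1cKO. No other marker of that list was called in either effect. Over all genes 1.96% fell in Egr1cKO and 0.816% with Cre. Without Neb, the summed level of the list was 22.8 to 36.1 CPM in male wild type, 7.55 to 12.7 in male Cre control, 19.7 to 40.7 in male Egr1cKO control and 8.53 to 13.5 in male Egr1cKO. In females it was 11.6 to 39.9 CPM in wild type, 8.70 to 13.0 in Cre control, 25.7 to 34.7 in Egr1cKO control and 8.45 to 10.5 in Egr1cKO. Female wild type and Cre control overlapped in this sum. Mean Ryr1 alone was 17.7 CPM in wild type males and 3.25 CPM in males of the Cre control. The defining contractile genes Acta1, Ckm, Myh2, Myh4, Mylpf, Tnni2, Tnnt3 and Actn3 were at 0 in at least 1 library each and never above 7.63 CPM. The part of muscle tissue in the Neb result was not tested.

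Some other genes called in both effects, named after their values were seen, are given as a description. They were chosen because both effects were called, so changes of like size follow in part from that choice. Among those that fell, Pcolce2, an enhancer of procollagen processing, had a Cre effect of -1.61 and an Egr1cKO effect of -1.85. Atg9b, of the autophagy machinery, had -1.54 and -1.74, and Ush1c, a scaffold protein, -1.52 and -1.47. Hepacam2, a cell adhesion molecule, had -1.17 and -1.08. Among those that rose, Aebp1, an extracellular matrix protein, had 1.41 and 1.13, Krt7, an epithelial keratin, 1.11 and 1.02, Capg, an actin-capping protein, 0.96 and 1.08, and Hspb8, a small heat shock protein, 0.80 and 0.85. Their differences lay between -0.28 (Aebp1, 95% interval -0.77 to 0.20) and 0.13 (Capg, -0.47 to 0.73), and every interval included 0.

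**Figure D3:**
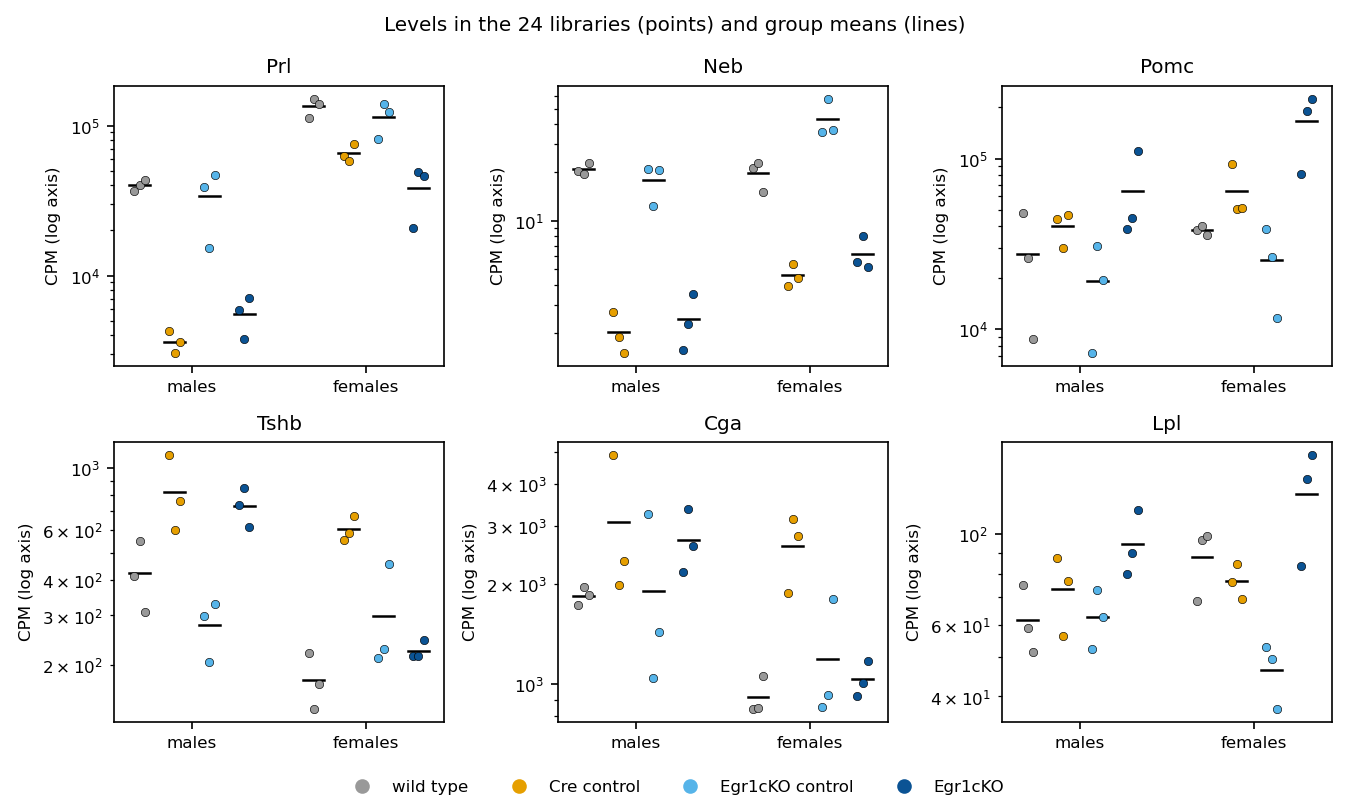
CPM of 6 genes on log axes, males left and females right in each panel; every point is 1 library, each line a group mean of 3, and colours mark the genotype. Prl and Neb drop with Cre in both backgrounds, while Pomc and Lpl are highest in female Egr1cKO and Tshb and Cga are high in female Cre control but not in female Egr1cKO.

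Of 13 somatotrope and lactotrope genes tested, 7 fell, 1 rose and 5 were not called in Egr1cKO. With Cre 3 fell and 10 were not called, and the list medians were -0.73 in Egr1cKO and -0.75 with Cre. Over all genes 1.96% fell and 1.19% rose in Egr1cKO, and 0.816% fell with Cre. The median effect beyond Cre was -0.08 with 6 genes positive and 7 negative, beside 0.01 over all genes. Gh had an Egr1cKO effect of -1.20 (adjusted p = 0.0181) and a Cre effect of -1.05 (adjusted p = 0.0764), a difference of -0.15 (95% interval -0.97 to 0.67). Pou1f1, the transcription factor that specifies these lineages, had -1.18 (adjusted p = 0.0024) and -0.75 (adjusted p = 0.087), a difference of -0.43 (-1.03 to 0.18). Ghrhr, the receptor for growth hormone-releasing hormone, had -1.56 (adjusted p = 0.00162) and -0.98 (adjusted p = 0.0716), a difference of -0.58 (-1.33 to 0.16). For these 3 genes a call in Egr1cKO and none with Cre thus came with a difference whose interval included 0. In whole pituitaries, fewer cells of a type and less RNA per cell cannot be told apart.

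Drd2, the dopamine receptor through which prolactin release is restrained, went the other way within the somatotrope and lactotrope list. Pax7, of the corticotrope and melanotrope list, also rose in Egr1cKO, and the part of other cell types in the Drd2 result was not tested. Male Drd2 levels were 141, 90.4 and 84.9 CPM in wild type, 155, 175 and 207 CPM in Cre control, 60.4, 162 and 114 CPM in Egr1cKO control and 189, 175 and 197 CPM in Egr1cKO, so libraries with Cre were higher in both backgrounds. Drd2 measured, in CPM, 99.0, 210 and 219 in female wild type, 129, 132 and 105 in female Cre control, 116, 67.3 and 81.1 in female Egr1cKO control and 224, 237 and 181 in female Egr1cKO. Here only Egr1cKO lay above its control, and the lowest wild type library was the one that stood apart. Drd2 rose in Egr1cKO (1.01, adjusted p = 0.00702) and had a Cre effect of 0.12 (adjusted p = 0.927). The pooled effect of floxed Egr1 beyond Cre was 0.89 (SE 0.292, edgeR adjusted p = 0.925), with 1.81 in females and -0.03 in males, and did not pass the test. Without female wild type replicate 1 the female value was called (2.10, adjusted p = 0.0038).

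Pomc had the largest positive difference among the hormone genes without passing the test. In males it measured 48091, 26177 and 8800 CPM in wild type, 44055, 29993 and 46675 CPM in Cre control, 7246, 30895 and 19305 CPM in Egr1cKO control and 38700, 44547 and 111100 CPM in Egr1cKO. In females it measured 38222, 40081 and 35586 CPM in wild type, 93274, 50633 and 50992 CPM in Cre control, 38570, 26589 and 11546 CPM in Egr1cKO control and 80988, 190030 and 224380 CPM in Egr1cKO. Egr1cKO lay above its control in both sexes without overlap, Cre control lay above wild type in females, and the 2 overlapped in males. Pomc rose by 2.22 in Egr1cKO (log2, adjusted p = 0.00334), the Cre effect was 0.66 (adjusted p = 0.603), and the difference was 1.57 (SE 0.558, 95% interval 0.42 to 2.72, adjusted p = 0.925).

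Some markers of the intermediate and posterior lobes were also higher in Egr1cKO. Pcsk2, the prohormone convertase that cuts Pomc further in melanotropes, had an Egr1cKO effect of 2.16 (adjusted p = 0.00266), a Cre effect of 1.01 (adjusted p = 0.258) and a difference of 1.15 (95% interval 0.12 to 2.19, adjusted p = 0.931). The corticotrope and melanotrope list had a median effect beyond Cre of 0.12, with 8 genes positive and 5 negative, and the posterior lobe list 0.34, with 7 positive and 3 negative. In males the first list without Pomc summed to 1831 to 2834 CPM in Egr1cKO and 664 to 1277 CPM in its control, beside 1630 to 2247 CPM in Cre control and 604 to 1295 CPM in wild type. It summed to 2650 to 4186 CPM in female Egr1cKO and 693 to 1552 CPM in its control, beside 1967 to 2871 CPM in female Cre control and 1174 to 1872 CPM in female wild type. Of its 13 genes, 4 rose in Egr1cKO (Pomc, Pcsk2, Pax7, Oacyl) and 1 with Cre (Neurod1), and the rest were not called. The summed posterior lobe markers were 501 to 674 CPM in female Egr1cKO and 298 to 331 CPM in its control, and 436 to 497 CPM against 327 to 423 CPM for female Cre control and wild type. Male sums were 341 to 410 CPM in Egr1cKO against 122 to 325 CPM in its control, and 238 to 397 CPM in Cre control against 141 to 228 CPM in wild type. Of 10 posterior lobe markers 4 rose in Egr1cKO (Avp, Oxt, Lhx2, Nkx2-1) and 0 with Cre, and none of the 10 was at 0 in any library. Beside the counts of both lists, 1.19% of all genes rose in Egr1cKO and only 0.228% with Cre. For Avp, the vasopressin gene, the difference was 1.43 (95% interval 0.27 to 2.59, adjusted p = 0.925), and for Oxt, the oxytocin gene, 0.75 (0.08 to 1.43, adjusted p = 0.931). The part of these markers in the Pomc result was not tested.

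Neurod1, a basic helix-loop-helix factor that acts with Tbx19 on Pomc in corticotropes, had the opposite sign. In males it measured 6.24, 9.43 and 4.98 CPM in wild type, 17.2, 11.7 and 10.9 CPM in Cre control, 11.1, 6.74 and 6.72 CPM in Egr1cKO control and 8.21, 12.6 and 7.67 CPM in Egr1cKO. In females it measured 5.17, 3.72 and 6.41 CPM in wild type, 22.2, 23.6 and 22.9 CPM in Cre control, 11.4, 11.3 and 9.70 CPM in Egr1cKO control and 18.1, 13.1 and 15.7 CPM in Egr1cKO. Cre control lay above wild type without overlap in both sexes, and Egr1cKO lay above its control in females only. Neurod1 rose with Cre (1.55, adjusted p = 0.000219), while the Egr1cKO effect was 0.38 (adjusted p = 0.34). The difference was -1.18 (SE 0.291, 95% interval -1.78 to -0.58, adjusted p = 0.827).

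The proximal promoters were searched for the core binding motif of the EGR proteins, GCGNGGGCG, on both strands in the 250 bases before each RefSeq start (GRCm38.p6). Of 13833 tested genes with an entry, 9.27% held a match, as did 5.33% of all 27025 genes in the promoter table. The share was 11.6% of 189 genes that rose and 12.9% of 318 that fell in Egr1cKO, and 10.3% of 39 and 9.09% of 132 with Cre. The shares differed by a few points only, no test was run, and a match is not a bound site. Pcsk2, Kmt2d and Tgfb1 are shown as examples of genes that hold a match and are described by their values here. Prl is shown because it fell in both effects and holds none. Each is given 5′ to 3′ on the strand of the gene, ending at the base before the start, with matches in capitals. Those on the strand opposite to the gene appear as the reverse complement.
Pcsk2 (chr2:143545883-143546132, plus strand): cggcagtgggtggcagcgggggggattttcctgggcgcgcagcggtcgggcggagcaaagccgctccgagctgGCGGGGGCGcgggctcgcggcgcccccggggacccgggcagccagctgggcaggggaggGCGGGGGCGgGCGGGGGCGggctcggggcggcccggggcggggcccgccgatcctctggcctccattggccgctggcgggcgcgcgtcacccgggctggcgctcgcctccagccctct
Kmt2d (chr15:98871206-98871455, minus strand): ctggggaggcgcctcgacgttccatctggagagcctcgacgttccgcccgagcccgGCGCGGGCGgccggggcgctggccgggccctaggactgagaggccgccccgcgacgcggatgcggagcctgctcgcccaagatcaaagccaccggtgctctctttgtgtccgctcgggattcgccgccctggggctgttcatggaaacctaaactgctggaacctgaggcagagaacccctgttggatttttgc
Tgfb1 (chr7:25686752-25687001, plus strand): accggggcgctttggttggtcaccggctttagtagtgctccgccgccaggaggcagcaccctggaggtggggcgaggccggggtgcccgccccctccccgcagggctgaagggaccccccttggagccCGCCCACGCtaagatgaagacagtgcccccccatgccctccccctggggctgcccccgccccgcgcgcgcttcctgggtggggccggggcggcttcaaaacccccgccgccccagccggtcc
Prl (chr13:27057320-27057569, plus strand): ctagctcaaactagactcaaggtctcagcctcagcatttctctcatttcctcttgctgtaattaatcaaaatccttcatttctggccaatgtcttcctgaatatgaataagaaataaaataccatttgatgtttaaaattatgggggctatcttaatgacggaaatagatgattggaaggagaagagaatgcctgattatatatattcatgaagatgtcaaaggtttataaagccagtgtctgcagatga
Pcsk2 has 3 matches on its own strand, which begin 177, 118 and 108 bases before the start. Kmt2d has 1 on its own strand at 194 bases, and Tgfb1 has 1 on the opposite strand at 122 bases. Neurod1, not shown, has 2 on the opposite strand at 59 and 18 bases before its RefSeq start, which lies inside the span that GENCODE gives the gene. Some other genes described here also hold a match, such as Cacna1c and Hspb8, on their own strand at 158 and 234 bases. The windows before Prl, Pomc, Tshb and Cga held no match.

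Tshb, the thyrotropin beta subunit gene, and Cga, the alpha subunit shared by thyrotropin and the gonadotropins, responded to Cre without floxed Egr1. Tshb measured, in CPM, 413, 548 and 308 in male wild type, 1109, 600 and 760 in male Cre control, 298, 206 and 329 in male Egr1cKO control and 736, 845 and 618 in male Egr1cKO. In females Tshb measured 221, 140 and 172 CPM in wild type, 557, 586 and 674 CPM in Cre control, 212, 228 and 456 CPM in Egr1cKO control and 215, 215 and 246 CPM in Egr1cKO. Libraries with Cre thus lay above those without in 3 of the 4 pairs, and female Egr1cKO overlapped its control. Tshb rose with Cre (1.36, adjusted p = 0.000304), and its Egr1cKO effect was 0.50 (adjusted p = 0.164). The pooled difference was -0.87 (SE 0.271, 95% interval -1.42 to -0.31, adjusted p = 0.925). It was made of -2.18 in females (adjusted p = 0.0683) and 0.44 in males (adjusted p = 1). Between the sexes the effects differed by -2.62 (adjusted p = 0.449), which did not pass. Without female wild type replicate 1 the female value of Tshb was -2.36 and was called (adjusted p = 0.00306). Tshb lies within the span of Tspan2, and unstranded reads of the 2 cannot be told apart. Tspan2 stood at 18.8 to 93.0 CPM, and its difference was 0.07 (95% interval -0.45 to 0.58).

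Cga (GRCm38 chromosome 4, 34893779 to 34907370) rose with Cre (1.12, adjusted p = 0.0254), and its Egr1cKO effect was 0.15 (adjusted p = 0.817). Male Cga levels were 1730, 1959 and 1857 CPM in wild type, 4905, 1996 and 2344 CPM in Cre control, 3251, 1042 and 1439 CPM in Egr1cKO control and 2172, 3364 and 2613 CPM in Egr1cKO. Male Egr1cKO overlapped its control, while male Cre control lay above wild type. Female Cga levels were 841, 851 and 1058 CPM in wild type and 1880, 3143 and 2789 CPM in Cre control, against 856, 926 and 1806 CPM in Egr1cKO control and 922, 1011 and 1174 CPM in Egr1cKO. The pooled difference was -0.97 (SE 0.355, 95% interval -1.70 to -0.24, adjusted p = 0.925), with -1.71 in females (adjusted p = 0.337) and -0.23 in males (adjusted p = 1). Fshb, the follicle-stimulating hormone beta subunit gene, had -0.79 (-1.85 to 0.27), and Gnrhr, the receptor that drives Egr1 induction in gonadotropes, had -0.05 (-1.39 to 1.30). The Gnrhr interval spans more than 2-fold in either direction, so a change of that size was not resolved.

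Platr9, a long noncoding RNA gene (chromosome 4, 34906124 to 34911481), was the 1 gene called in either sex. Its span overlaps the end of Cga, and reads from the shared stretch cannot be told apart. Male Platr9 stayed between 10.3 and 18.4 CPM in all 12 libraries. Female Platr9 measured 4.99, 3.06 and 6.29 CPM in wild type, 31.3, 31.3 and 21.6 CPM in Cre control, 16.1, 8.04 and 20.5 CPM in Egr1cKO control and 12.4, 9.96 and 9.91 CPM in Egr1cKO. Cre control lay above wild type without overlap, while Egr1cKO and its control overlapped. The female effect beyond Cre was -3.02 (SE 0.442, edgeR adjusted p = 0.0062), the only call among 21927 genes in females (0.00456%). It came with a pooled value of -1.59 (SE 0.307, adjusted p = 0.447) and a male value of -0.16 (adjusted p = 1). Platr9 stayed called in females in 32 of 33 alternative fits, with log2 values from -3.31 to -2.72. The exception was the fit on female libraries alone, where 0 genes were called.

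With the sexes pooled, thyrotrope and gonadotrope lists had mostly negative differences. In the gonadotrope list 12 of 13 genes were negative, with a median of -0.25 (males -0.23, females -0.39). Fst, counted there, had group means of at most 0.621 CPM. Foxl2, a transcription factor of gonadotropes and thyrotropes, rose with Cre (1.09, adjusted p = 0.00363), had an Egr1cKO effect of 0.40 (adjusted p = 0.291) and a difference of -0.69 (95% interval -1.26 to -0.11, adjusted p = 0.925). In the thyrotrope list 5 of 6 genes were negative, with a median of -0.51. The list median was 0.03 in males and -0.73 in females, and its member Sox14 had group means of at most 0.429 CPM. Isl1, a LIM-homeodomain factor of thyrotropes, rose with Cre (0.89, adjusted p = 0.00273), had an Egr1cKO effect of 0.25 (adjusted p = 0.413) and a difference of -0.64 (-1.10 to -0.18, adjusted p = 0.925). No member of either list passed the test of the difference.

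The genes with the smallest p for a positive pooled difference were Lpl, Nol3, Fam107b, Crybg1 and Gpd1, all at an adjusted p of 0.827 and so not called. Lpl, the lipase that releases fatty acids from circulating triglycerides, measured, in CPM, 74.8, 58.8 and 51.4 in male wild type, 87.5, 56.2 and 76.9 in male Cre control, 52.2, 73.0 and 62.6 in male Egr1cKO control and 79.6, 89.7 and 114 in male Egr1cKO. In females Lpl measured 68.3, 96.8 and 98.8 CPM in wild type, 76.0, 84.4 and 69.1 CPM in Cre control, 52.9, 49.5 and 37.2 CPM in Egr1cKO control and 83.2, 136 and 156 CPM in Egr1cKO. Egr1cKO lay above its control in both sexes, and Cre control overlapped wild type in both. In females this overlap rested on the wild type library that stood apart, and the other wild type libraries lay above all Cre control libraries. Lpl rose in Egr1cKO (1.01, adjusted p = 0.000719), its Cre effect was 0.03, and the difference was 0.98 (SE 0.226, 95% interval 0.52 to 1.45). Without female wild type replicate 1 the female value of Lpl was called (1.78, adjusted p = 0.00188).

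For the others the pooled differences and intervals were 1.18 (0.61 to 1.74) for Nol3, an inhibitor of apoptosis, and 1.58 (0.82 to 2.35) for Fam107b. They were 1.02 (0.50 to 1.55) for Crybg1, a crystallin-domain protein, and 1.06 (0.51 to 1.61) for Gpd1, the cytosolic glycerol-3-phosphate dehydrogenase. All 5 were positive in each sex, with male values of 0.34 to 1.36 and female values of 1.54 to 1.92. The pooled value is the mean of both sexes, so genes chosen by it tend to have like signs in each. Crybg1 and Fam107b also rose in Egr1cKO (1.05, adjusted p = 0.00162, and 0.96, adjusted p = 0.0413), whereas Nol3 (adjusted p = 0.0675) and Gpd1 (adjusted p = 0.109) were called in neither effect.

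On the negative side the smallest p values belonged to Platr9, Zbbx, Neurod1, Kmt2d and Kcnrg. Kmt2d, a histone H3 lysine methyltransferase, measured, in CPM, 275, 410 and 426 in male wild type, 235, 478 and 356 in male Cre control, 464, 302 and 513 in male Egr1cKO control and 210, 198 and 320 in male Egr1cKO. In females Kmt2d measured 298, 233 and 251 CPM in wild type, 427, 291 and 349 CPM in Cre control, 622, 610 and 635 CPM in Egr1cKO control and 435, 347 and 331 CPM in Egr1cKO. The 3 female Egr1cKO control libraries were the highest of all 24. Kmt2d fell in Egr1cKO (-0.78, adjusted p = 0.0123), its Cre effect was 0.20, and the difference was -0.98 (95% interval -1.48 to -0.47, adjusted p = 0.827). Zbbx and Kcnrg rested on libraries without counts: Zbbx had 0 counts in all 3 female Egr1cKO libraries against 124 summed over their controls, and Kcnrg 0 against 68. No fitted fold is given for these 2. In their unfloxed counterparts Zbbx had 83 counts in female Cre control and 168 in female wild type, and Kcnrg 68 and 89.

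**Figure D4:**
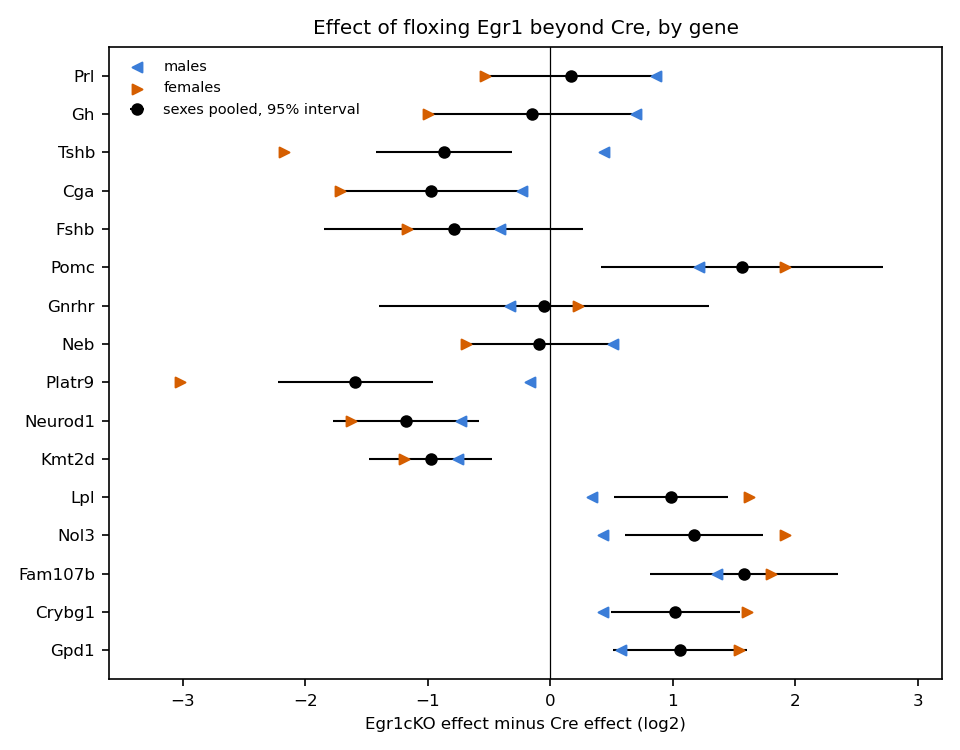
Horizontal axis, Egr1cKO effect minus Cre effect (log2) for 16 genes; black points are the sexes pooled with 95% intervals, blue triangles males and orange triangles females. Prl, Gh and Neb have intervals across 0, and for Tshb and Platr9 the female value (-2.18 and -3.02) lies well below the pooled interval while the male value is near or above 0.

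No gene was called in males for the effect beyond Cre (0%), and only 233 genes (1.06%) had an unadjusted p under 0.05, against 2151 in females. The smallest male p values included those of Pianp (1.33) and Tubgcp6 (-0.96), both at an edgeR adjusted p of 1. The difference of the effect between the sexes, female minus male, was called for 0 genes (0%). At an unadjusted p under 0.05 there were 1154, and DESeq2 called 11. The smallest adjusted p, 0.449, belonged to Tshb and Platr9, and Rxrg, a retinoid receptor of thyrotropes, had -1.91 (adjusted p = 0.634). This count rested on the fit: edgeR called 40 genes without female wild type replicate 1, 45 without a filter on low counts, 10 with the mitochondrial share as a covariate and 1 with genes detected as a covariate. The sex difference was called for Tshb in 4 of 32 alternative fits and for Platr9 in 3.

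Gene lists are described by their medians of the effect beyond Cre and by the sign of their members, beside 0.01 and 50.7% positive over all genes. No list had a called member. Of 85 cytosolic ribosomal protein genes, 81 were positive with a median of 0.35, and 8 had an unadjusted p under 0.05, all positive. Their median Egr1cKO effect was 0.36 and their median Cre effect 0.02, and no member was called in either. The list median stayed between 0.26 and 0.55 over the fits that left out 1 library and between 0.34 and 0.52 over the other alternatives. Rps6, of the small subunit, measured, in CPM, 162, 693 and 559 in female wild type, 310, 302 and 303 in female Cre control, 153, 177 and 218 in female Egr1cKO control and 244, 267 and 331 in female Egr1cKO. Egr1cKO lay above its control, and the low wild type value belongs to the library that stood apart.

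All 12 mitochondrially encoded protein genes were positive, with a median of 0.82, but none had an unadjusted p under 0.05. This median ran from 0.16 to 1.02 over the fits that left out 1 library and was -0.25 once the mitochondrial share itself was a covariate. The 72 nuclear genes of oxidative phosphorylation had a median of 0.16 with 59 positive, and here males (0.33) and females (-0.09) differed in sign. Granins and other secretory granule genes had a median of 0.38 with 10 of 11 positive. Pam, which amidates neuropeptides, had 0.60 (95% interval 0.01 to 1.19, adjusted p = 0.931). MHC class II genes, of antigen-presenting cells, had a median of 0.38 with 8 of 8 positive. Chaperones and folding enzymes of the endoplasmic reticulum had a median of 0.26 with 13 of 16 positive. In Egr1cKO 5 of these 16 rose (Calr, Creld2, Pdia4, Pdia6, Sdf2l1), with Cre 0, beside 1.19% and 0.228% of all genes. Voltage-gated calcium channel genes had a median of -0.40 with 7 of 9 negative. Cacna1c, an L-type channel subunit, had -0.46 (-0.82 to -0.10, adjusted p = 0.925), with an Egr1cKO effect of -0.52 (adjusted p = 0.0181) and a Cre effect of -0.06.

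No member of the lists tied to Egr1 was called for the difference. The gene for the luteinizing hormone beta subunit, its best-known pituitary target, was in none of the lists and is not described here. The EGR family and its NAB corepressors had a median difference of -0.17 over 6 genes, with 0 at an unadjusted p under 0.05. The median was -0.22 in males and -0.37 in females and turned to 0.61 when libraries were weighted by quality. Other immediate early genes had -0.15 over 21 genes, also with 0, and 0.86 when weighted. Both lists spread widely between libraries: Egr3, a close relative of Egr1, measured 80.0, 5.71 and 0.809 CPM in the 3 male Cre control libraries. Of 12 textbook Egr1 targets, 7 were positive with a median of 0.17, and 1 had an unadjusted p under 0.05. That was Tgfb1, a growth factor, at 0.87 (95% interval 0.14 to 1.60, adjusted p = 0.925). The median of these targets was -0.38 in males and 0.31 in females. Activin, inhibin and BMP pathway genes had a median of -0.15 over 16 genes and interferon response genes -0.20 over 14. Cell cycle genes had -0.07 over 15, cholesterol synthesis genes 0.15 over 15 and circadian clock genes 0.13 over 14.

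Marker lists of other cell types had medians of -0.10 (endothelial, 11 of 11 negative), -0.03 (mural and fibroblast), 0.15 (leukocyte and macrophage), 0.30 (erythroid), 0.01 (stem and folliculostellate) and 0.23 (brain neuron and oligodendrocyte). No member of any of them was called for the difference. Summed endothelial markers lay between 190 and 377 CPM in all 24 libraries.

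**Figure D5:**
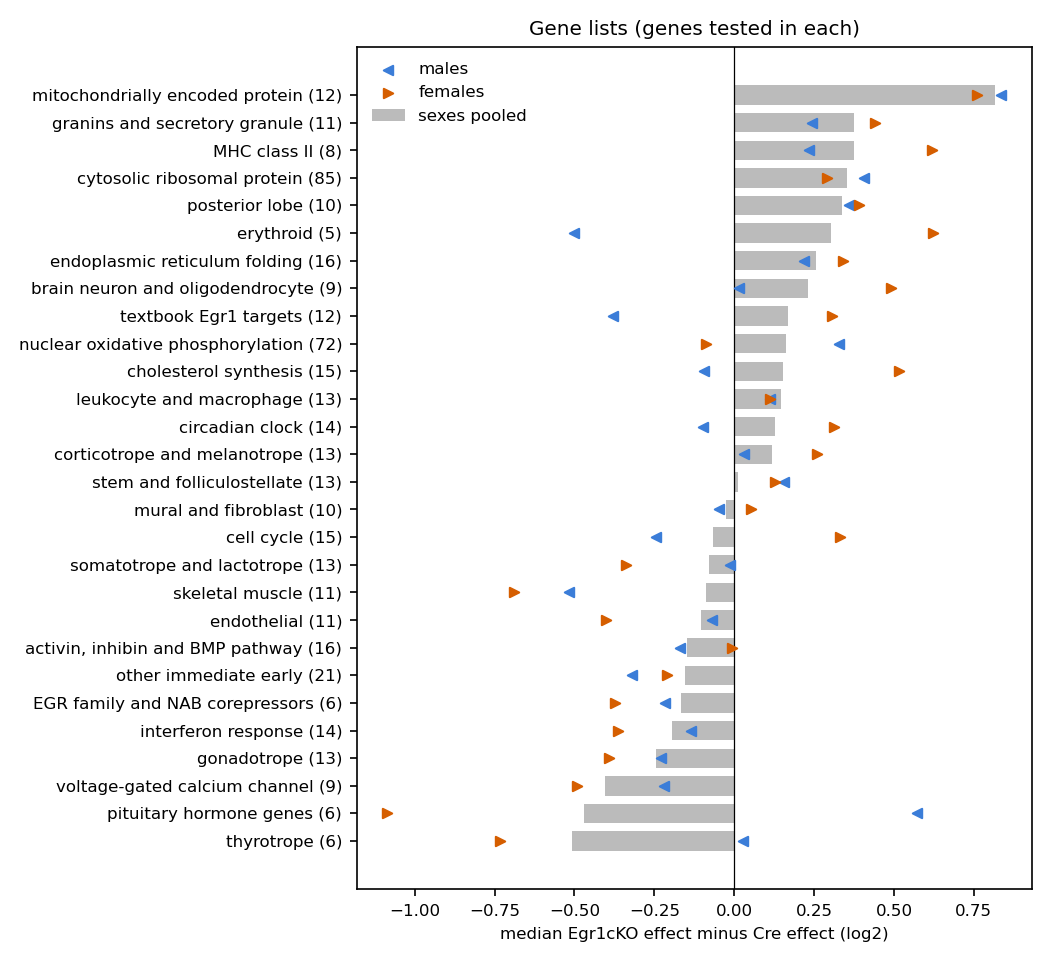
Median Egr1cKO effect minus Cre effect (log2) in each gene list, with the number of genes tested in brackets: grey bars, sexes pooled; blue triangles, males; orange triangles, females. Mitochondrially encoded genes (0.82) are highest and thyrotrope genes (-0.51) lowest, and the hormone genes have opposite signs in males (0.57) and females (-1.09).

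The pooled count stayed at 0 without female wild type replicate 1 and with genes detected as a covariate, but not with library weights or the mitochondrial share as a covariate. With limma-voom and weights for library quality, which gave that library a weight of 0.118, the smallest of all 24, 726 genes (3.31%) were called beyond Cre, 303 higher and 423 lower. With the mitochondrial share as a covariate in edgeR, 320 genes (1.46%) were called, 173 higher and 147 lower. Both fits shared 217 genes. Leaving the library out kept the pooled count at 0, with 2986 genes at an unadjusted p under 0.05. It moved the female count from 1 to 1282 of 23210 genes (5.52%), 706 higher and 576 lower. Of the 217 genes shared for the pooled effect, 210 were also called for the female effect without that library. The pooled and female effects differ, so the 210 are not calls of the same effect in every fit. Of the 726, 242 had an unadjusted p under 0.05 in the unweighted test, 89 were also called in the Egr1cKO effect and 16 in the Cre effect. Without the library, the lowest pooled adjusted p of the named genes was 0.0515, for Platr9, Lpl, Rps6 and Canx alike.

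Genes called by the weighted fit overlapped the smallest p values above and the ribosomal protein list. That fit tests the same difference on the same counts, so the overlap is no separate support. Lpl had 1.07 (limma adjusted p = 0.00963), Nol3 1.13 (0.0183), Fam107b 1.51 (0.028), Crybg1 0.93 (0.0292) and Gpd1 1.05 (0.0248). Platr9 had -1.75 (0.00963), Kmt2d -1.28 (0.00963) and Neurod1 -1.10 (0.0248). Of 85 ribosomal protein genes 33 were called higher and 0 lower, beside 3.31% of all genes called in either direction. The initiation factor subunit Eif3h (0.79) was called with them. Canx, an endoplasmic reticulum chaperone, had 0.84, and Drd2 had 1.03. Cacna1c and Cacna1d were called lower, as was Isl1 (-0.73). Pomc (1.40, adjusted p = 0.252), Prl (0.14), Gh (-0.17), Tshb (-0.82, adjusted p = 0.0584) and Cga (-0.54, adjusted p = 0.472) were not called there. The mitochondrial share, the number of genes detected and genotype moved together in the females, and their parts in these calls were not tested.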

How the data were processed

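For 24 pituitary libraries the authors deposited a table of unnormalized counts by Ensembl gene. The submitters' processing notes name Trim Galore 3.8.2, FastQC, STAR 2.7.9 and the GRCm38 build. The tool that counted and its annotation were not given in the sources used here. Per the labels, libraries were polyA and non-stranded. GENCODE M21 named 35077 of the 35191 identifiers, and 114 did not match.

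Counts were fitted in R 4.3.3 with edgeR 4.0.16 (filterByExpr, TMM, robust quasi-likelihood, 1 mean for each of 8 groups, 16 residual degrees of freedom). P-values were adjusted by Benjamini-Hochberg over 21927 genes at 0.05. CPM is edgeR's value on TMM-scaled totals, and fitted log2 values used a prior count of 0.125. The fitting code was run on simulated counts with known fold changes in Egr1cKO. That simulation held no Cre effect and no library that stood apart, so it bears on the code only. DESeq2 1.42.0, limma 3.58.1, other filters and scalings, 2 covariates and each library left out were alternatives. Weighting by library quality, fits within 1 sex and the count of genes called in both effects were added after seeing the data.

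Named genes were Egr1, the hormone genes, Gnrhr, Neb, and genes called or, where fewer than 5 passed (3 within a sex), those with the smallest p and at least 1 CPM in a group; predicted genes were skipped. From each list the 3 members or fewer with the lowest p were also taken, and genes called in both effects were added. Tspan2 and some other genes discussed beside a result were picked by hand, and Eif3h came from the top genes of the weighted fit. Members and lists were chosen with earlier results of these data known. Replicate numbers follow accession order and only name libraries.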

Additional observations from a re-analysis of the deposited data

How the results depend on the processing

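Counts of called genes depended on the fit, and the cause was not tested. For the pooled effect beyond Cre (0 called), DESeq2 gave 3, no filter on low counts 59, the mitochondrial covariate 320 and quality weights 726; leaving out 1 library gave 0 to 1, the 1 without female Egr1cKO control replicate 2. In males (0 called) no filter gave 14. In females (1 called) DESeq2 gave 98, the covariate of genes detected 12, the mitochondrial covariate 1843, no filter 164, quality weights 1008 and only the female libraries 0; leaving out 1 library gave 1 to 1282, the highest without female wild type replicate 1 and 24 without female Egr1cKO replicate 1. For the sex difference (0 called) DESeq2 gave 11, genes detected 1, the mitochondrial covariate 10, no filter 45 and weights 5; leaving out 1 library gave 0 to 40. The Egr1cKO effect (691) became 1360 with DESeq2, 1415 with genes detected, 4217 with the mitochondrial covariate, 1299 without a filter and 2005 with weights, and 294 to 1639 with 1 library left out. The Cre effect (229) became 499, 389, 461, 712 and 1213 in that order, and 132 to 411. Genes called in both (133) ranged from 89 to 180 with 1 library left out. None of 131 named genes was called for the pooled effect beyond Cre in the main edgeR fit, with its filter and no covariate. Of their 4154 alternative values, 58 were called and 127 changed sign. The Cre effect of Klf4, 1.46 and not called, was -0.00922 with weights. No paired analysis was possible because replicate numbers were given in accession order. With 3 libraries a group, a difference under 2-fold was often not resolved. Some estimates over 2-fold, such as that of Pomc, were not called either.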
